A study of Mus musculus with 28 samples.

Results

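The major urinary proteins (Mups) are described here in archival mouse livers through 8 of their genes: Mup1, Mup2, Mup3, Mup4, Mup5, Mup6, Mup20 and Mup21. Every probe was taken whose RefSeq accession in the scanner files belongs to 1 of these genes. That gave 9 probes for 7 genes among the 55681 distinct probes of the array: 2 each for Mup4 and Mup20 and 1 each for Mup2, Mup3, Mup5, Mup6 and Mup21. No probe carried an accession of Mup1. The family was selected on measured values of these arrays, among them a lower Mup21 signal after phenobarbital, so its exposure differences are given as a description.

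The exposed group was 3 male B6C3F1 mice that drank water with 0.05% phenobarbital for about 4 weeks, and the control group was 3 male B6C3F1 mice given drinking water alone. The labels give both groups an age of 42 days and formalin-fixed, paraffin-embedded liver blocks stored for 16 years. Amplified cDNA of each mouse was hybridized to Agilent arrays at a 1.5X or a 1X input, on one-colour arrays (6 per input) or two-colour arrays (8 per input, each with an exposed mouse against a control mouse). Each of the 4 sets filled 1 slide. The one-colour 1.5X and two-colour 1X slides were scanned in session 2 and the other slides in session 1, so input, slide and scan session cannot be told apart within a format.

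Phenobarbital acts on the liver largely through the nuclear receptor CAR, which turns on drug-metabolizing enzymes. Mups are small secreted lipocalins that carry pheromones in a hydrophobic pocket and leave the body in the urine. In mice the liver makes most of them, males more than females, and the male pattern of growth hormone release acting through STAT5 keeps the genes high. They lie in a cluster on chromosome 4, where the RefSeq table lists 22 numbered Mup genes. Many copies are nearly identical, so a probe can take up RNA of copies other than the one it is named for, and each value below belongs to a probe.

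The 250 bases before the start that RefSeq's promoter table uses are shown so that genes whose probes moved differently below, such as Mup21 and Mup3, can be set side by side. A RefSeq promoter entry existed for 5 of the 8 genes (assembly GRCm38.p6), and the capitals mark the only TATATAA in each. For Mup2 that start lies inside the gene's span in RefSeq's gene table, which begins further upstream, so its window covers part of the annotated gene.
Mup2, chr4:60139857-60140106, minus strand: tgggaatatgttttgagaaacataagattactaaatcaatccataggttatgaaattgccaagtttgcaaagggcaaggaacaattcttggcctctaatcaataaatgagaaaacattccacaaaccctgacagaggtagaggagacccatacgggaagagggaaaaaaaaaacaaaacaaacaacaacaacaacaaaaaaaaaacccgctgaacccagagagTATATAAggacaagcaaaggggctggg
Mup3, chr4:62087318-62087567, minus strand: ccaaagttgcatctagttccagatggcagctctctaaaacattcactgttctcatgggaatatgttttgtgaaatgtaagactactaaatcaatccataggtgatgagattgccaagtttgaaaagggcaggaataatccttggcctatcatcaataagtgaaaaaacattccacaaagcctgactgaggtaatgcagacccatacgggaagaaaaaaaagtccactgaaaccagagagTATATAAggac
Mup4, chr4:59960668-59960917, minus strand: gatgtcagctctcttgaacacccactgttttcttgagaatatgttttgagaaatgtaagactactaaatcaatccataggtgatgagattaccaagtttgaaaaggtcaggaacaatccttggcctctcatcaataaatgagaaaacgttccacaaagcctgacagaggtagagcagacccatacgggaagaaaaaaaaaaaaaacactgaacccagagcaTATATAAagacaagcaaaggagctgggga
Mup6, chr4:60003231-60003480, plus strand: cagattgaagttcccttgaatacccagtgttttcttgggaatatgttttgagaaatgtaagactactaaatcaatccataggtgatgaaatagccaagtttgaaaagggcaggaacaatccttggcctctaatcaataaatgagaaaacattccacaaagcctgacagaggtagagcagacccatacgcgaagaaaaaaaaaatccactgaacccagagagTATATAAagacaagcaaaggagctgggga
Mup21, chr4:62150842-62151091, minus strand: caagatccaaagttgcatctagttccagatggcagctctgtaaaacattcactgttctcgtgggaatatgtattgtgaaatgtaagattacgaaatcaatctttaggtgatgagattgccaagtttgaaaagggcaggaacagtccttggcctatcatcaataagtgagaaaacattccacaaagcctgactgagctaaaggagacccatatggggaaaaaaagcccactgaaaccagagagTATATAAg
The TATATAA lay 27 to 21 bases before the start of Mup2, 29 to 23 before those of Mup4 and Mup6, 11 to 5 before that of Mup3 and 8 to 2 before that of Mup21. It was present in 5 of these 5 windows and in 11 of 14 windows of numbered Mup genes, against 3.04% of all 32851 promoter windows of the same length, with both strands searched. The motif TTCNNNGAA, searched on both strands, was in 0 of the 5 windows and in 7.02% of all windows. Over aligned bases the Mup3 and Mup21 windows were 93.9% identical, Mup2 and Mup6 93.4% and Mup4 and Mup6 92.3%. The least alike pair, Mup4 and Mup21, shared 85.7%.

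The livers gave the marker pattern of the labelled tissue: all 8 hepatocyte markers, albumin among them, were well above background on all 12 one-colour arrays. All 10 exocrine pancreas markers were well above background there too. Their summed level (log2 of the sum over tested markers) over both one-colour inputs ran from 6.44 to 8.97 in phenobarbital mice and from 7.06 to 8.995 in control mice, so the groups overlapped. The part of pancreas RNA in the values below was not tested. Well above background were 28.1 to 38.5% of probes in the one-colour 1.5X set and 44.2 to 51.9% in the one-colour 1X set, and in the two-colour Cy5 channel 2.97 to 7.41% at 1.5X and 14.8 to 23.1% at 1X. Of the Mup probes, 1 for Mup4 (A_55_P2007816) was not well above background on any array and has no value here. The other 8 were well above background on all 12 one-colour arrays, and 0 spots of the 9 probes were saturated. One-colour levels below are scaled within a set, so they compare mice of that set only.

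Mup21 was the member furthest below control after phenobarbital. On one-colour 1X arrays its log2 level, relative to the array's 75th percentile, was 4.73, 4.37 and 4.31 in phenobarbital mice 1, 2 and 3, against 5.44, 5.56 and 5.14 in control mice 1, 2 and 3. On one-colour 1.5X arrays it was 3.69, 3.51 and 3.58 in phenobarbital mice, against 4.69, 4.50 and 4.33 in control mice. The normalized log2 signals of the two-colour 1X set were 12.29, 12.28 and 12.02 in phenobarbital mice and 12.98, 12.92 and 12.82 in control mice. The groups did not overlap in any of these 3 sets. The difference, phenobarbital minus control, was -0.91 ± 0.22 (SE, n = 3 mice each) at one-colour 1X, -0.91 ± 0.17 at one-colour 1.5X and -0.71 ± 0.09 at two-colour 1X. On 4 two-colour 1X arrays the description and the source names number the mice differently. Values by mouse, here and below, follow the description. Under the source names, values of phenobarbital mice 1 and 2 and of control mice 2 and 3 would each mix the dyes of different mice. The two-colour 1X SE would then not measure the spread between mice. In the two-colour 1.5X set Mup21 read 10.60, 10.03 and 10.67 in phenobarbital mice, against 10.87, 11.29 and 10.26 in control mice. There the groups overlapped, with a difference of -0.38 ± 0.32. Each of these arrays carries 1 phenobarbital and 1 control mouse, and its own log2 ratio of Mup21 was 0.49 on array 6 and between -1.75 and -0.16 on the others, among which arrays 3 and 4, and 5 and 8, repeat the same pair of mice.

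Mup2, a urinary protein gene of the liver, stood on the other side. Its log2 level at one-colour 1X was 7.48, 8.18 and 8.29 in phenobarbital mice, against 7.35, 7.76 and 7.32 in control mice, and at one-colour 1.5X it was 6.01, 6.89 and 7.34 in phenobarbital mice, against 6.30, 6.10 and 6.23 in control mice. Phenobarbital mouse 1 lay among the controls at 1X and below them at 1.5X, while phenobarbital mice 2 and 3 lay above all controls in both sets. In the two-colour 1X set the values were 15.71, 15.70 and 16.45 in phenobarbital mice, against 15.09, 15.01 and 15.02 in control mice. Under the mouse numbers of the description there was no overlap. The differences were 0.51 ± 0.27, 0.54 ± 0.33 and 0.92 ± 0.18 in these sets (SE, n = 3 mice each).

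Mup20 encodes darcin, the male pheromone protein that draws females to a scent mark, and its 2 probes differed in sign in 3 of the 4 sets. Probe A_55_P2051486, the brighter, read 6.08, 6.13 and 6.34 in phenobarbital mice, against 5.98, 5.92 and 5.54 in control mice at one-colour 1X, and 14.12, 14.02 and 14.57 in phenobarbital mice, against 13.65, 13.57 and 13.41 in control mice at two-colour 1X. The groups did not overlap in either set, with the two-colour mice numbered by the description. At one-colour 1.5X it read 4.34, 5.81 and 6.30 in phenobarbital mice, against 5.74, 5.44 and 5.65 in control mice, so phenobarbital mouse 1 lay lowest of the 6. The difference there was -0.12 ± 0.47, turning to 0.45 without that mouse, while it was 0.37 ± 0.21 at one-colour 1X and 0.69 ± 0.14 at two-colour 1X.

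Mup20 probe A_55_P2063654 was lower on average in phenobarbital mice in all 4 sets, with an overlap in each. It read 3.88, 3.53 and 3.48 in phenobarbital mice, against 4.28, 3.49 and 3.65 in control mice at one-colour 1X. At one-colour 1.5X it read 3.07, 2.42 and 2.44 in phenobarbital mice, against 3.52, 2.45 and 3.02 in control mice, and at two-colour 1X 11.08, 10.98 and 10.54 in phenobarbital mice, against 11.66, 11.01 and 10.90 in control mice. Control mouse 1 was the highest of the 6 mice in each of these sets. The differences were -0.18 ± 0.26, -0.35 ± 0.31 and -0.32 ± 0.21.

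Mup5, known in mice from exocrine glands, read 2.84, 3.47 and 3.44 in phenobarbital mice, against 2.72, 2.84 and 2.49 in control mice at one-colour 1X. Phenobarbital mouse 1 and control mouse 2 stood side by side there, so the groups were barely apart. At one-colour 1.5X the values were 0.05, 0.96 and 1.29 in phenobarbital mice, against 0.25, -0.36 and 0.39 in control mice, with phenobarbital mouse 1 among the controls. At two-colour 1X they were 9.02, 8.85 and 9.38 in phenobarbital mice and 8.60, 8.18 and 8.51 in control mice. These values did not overlap under the mouse numbers of the description. The differences were 0.56 ± 0.24, 0.67 ± 0.36 and 0.65 ± 0.15 (SE, n = 3 mice each).

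For Mup3, Mup4 and Mup6 the groups overlapped or met on one-colour arrays. Mup3 read 6.29, 6.50 and 6.65 in phenobarbital mice, against 6.34, 6.58 and 6.20 in control mice at one-colour 1X. It read 4.75, 5.06 and 5.44 in phenobarbital mice, against 4.97, 4.82 and 4.86 in control mice at one-colour 1.5X, and both sets had an overlap. Phenobarbital mouse 3 was the highest of the 6 in both sets and on the two-colour 1X arrays. At two-colour 1X Mup3 read 13.24, 13.36 and 13.62 in phenobarbital mice and 13.23, 13.13 and 13.02 in control mice, a difference of 0.28 ± 0.11. These groups did not overlap under the mouse numbers of the description, and overlapped under those of the source names. On one-colour arrays its difference was 0.11 ± 0.21 at 1X and 0.20 ± 0.21 at 1.5X. Without scaling between arrays the 1X value was -0.19, where the median of all probes was -0.29 (0.0083 as scaled).

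Mup4, which in mice is known from nasal and other glands, read 2.04, 2.43 and 2.70 in phenobarbital mice, against 2.42, 1.75 and 1.84 in control mice at one-colour 1X (probe A_55_P2010093). At one-colour 1.5X it read -3.47, -3.59 and -2.86 in phenobarbital mice and -3.20, -3.73 and -3.73 in control mice, and both sets had an overlap. Its differences were 0.39 ± 0.27 and 0.25 ± 0.26. Mup6 read 3.76, 4.05 and 4.17 in phenobarbital mice, against 3.76, 3.35 and 3.33 in control mice at one-colour 1X, where the groups met at phenobarbital mouse 1 and control mouse 1. At one-colour 1.5X it read -2.91, -3.04 and -2.79 in phenobarbital mice and -2.93, -3.39 and -3.33 in control mice, with an overlap. The Mup6 differences were 0.51 ± 0.22 and 0.30 ± 0.19. In both inputs control mouse 1 was the highest control for Mup4 and Mup6.

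**Figure D1:**
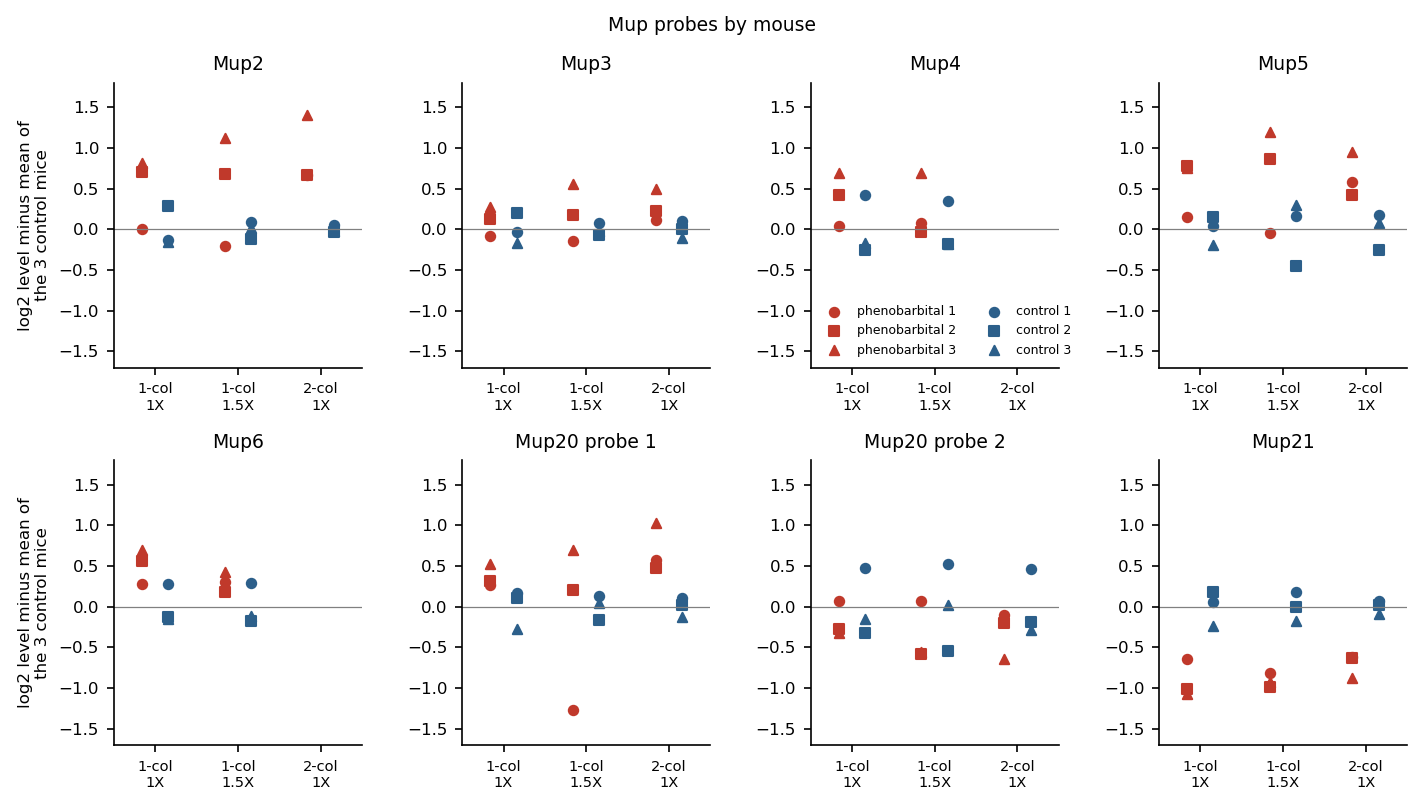
Log2 level of each Mup probe by mouse, minus the mean of the 3 control mice of the same set, in the one-colour 1X, one-colour 1.5X and two-colour 1X sets. Red points are phenobarbital mice, blue points control mice, and the marker shape is the mouse number, by the description in the two-colour 1X set. Mup20 probe 1 is A_55_P2051486 and probe 2 is A_55_P2063654, and Mup4 and Mup6 were not tested in the two-colour 1X set. All 3 phenobarbital mice lie below all 3 control mice for Mup21 in each set, and phenobarbital mouse 1 is the low point of Mup20 probe 1 at 1.5X.

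Over all probes, a limma fit with Benjamini-Hochberg adjustment and a threshold of 0.05 called 34 of 24613 probes at one-colour 1X (0.138%), 44 of 16758 at one-colour 1.5X (0.263%) and 119 of 16296 on the mean of both one-colour inputs (0.73%). None of the 8 Mup probes tested was called in these 3 fits, and 3, 1 and 2 of them had an unadjusted p under 0.05, as did 2155, 2458 and 2194 of all probes tested. In the two-colour 1X set the fit called 646 of 10043 probes (6.43%), and 4 of the 6 Mup probes tested were among them: Mup2, Mup5 and Mup20 probe A_55_P2051486 higher and Mup21 lower. Mup4 and Mup6 were not tested there, being well above background on 4 and 5 of 6 Cy3 spots and on 1 Cy5 spot each. These 4 calls depend on which mouse numbers the two-colour 1X arrays carry. With the numbers of the source names, which differ from the description on 4 arrays, 0 Mup probes passed and 122 of 10043 probes did. The Mup differences kept their sizes by construction, because these numbers only exchange mice within an exposure group and leave its mean unchanged. Without phenobarbital mouse 1, 2 Mup probes and 326 of all probes passed. Without control mouse 1, 2 or 3, 1 Mup probe did each time, and 398, 314 and 264 of all probes. The fit of the Cy5 channel alone left 0 Mup probes and 37 of 10284 in all. In the two-colour 1.5X set 0 of 1823 probes passed (0%), 35 of them with an unadjusted p under 0.05, 0 of them among the 7 Mup probes tested (Mup4 was not).

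Groups without overlap were common over all probes: 14.2% at one-colour 1X, 20.6% at one-colour 1.5X, 19% over both inputs, 32.7% at two-colour 1X and 4.22% at two-colour 1.5X. The Mup probes without overlap numbered 4 of 8, 1 of 8, 2 of 8, 5 of 6 and 0 of 7 in the same order. Since the family was chosen with the exposure contrast known, nothing is read from these counts. The median difference of the Mup probes was 0.38 at one-colour 1X (0.01 over all probes), 0.22 at 1.5X (-0.04), 0.24 over both inputs (-0.03), 0.47 at two-colour 1X (-0.01) and 0.25 at two-colour 1.5X (0.03). The exposure difference itself did not differ detectably between the one-colour inputs for any Mup probe. For Mup21 the 1.5X minus 1X change in it was 0.00 ± 0.20 (adjusted p = 0.999, limma), and for Mup20 probe A_55_P2051486 it was -0.49 ± 0.43 (adjusted p = 0.938).

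**Figure D2:**
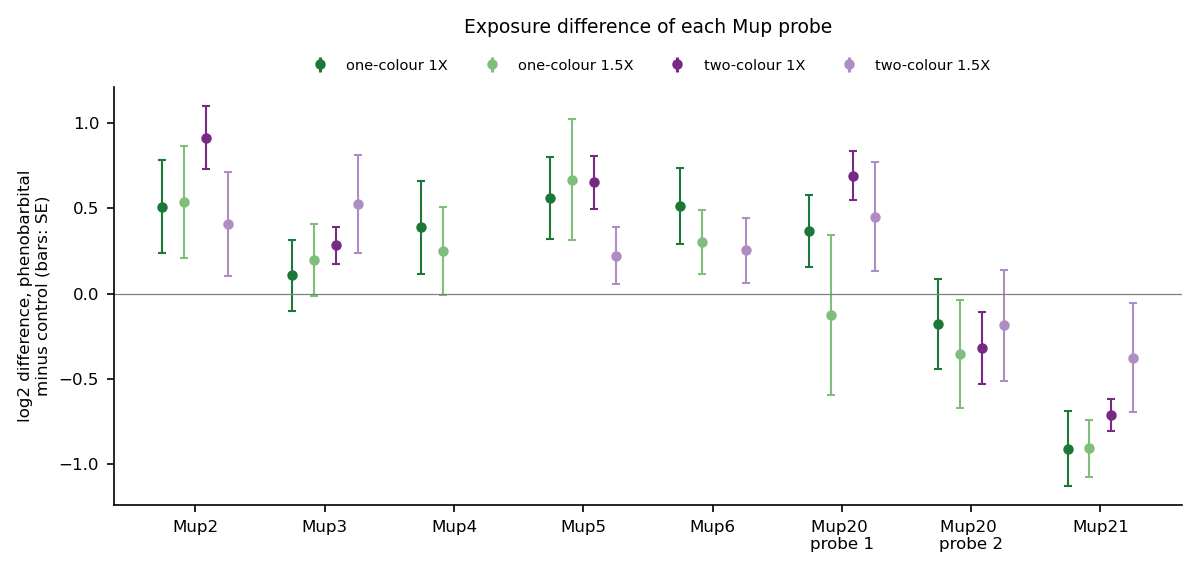
Log2 difference, phenobarbital minus control, of each Mup probe in the 4 sets, with points for the estimate and bars for its standard error (n = 3 mice per group). Mup21 lies at -0.91, -0.91, -0.71 and -0.38, Mup2 at 0.51, 0.54, 0.92 and 0.41, and the 2 Mup20 probes lie on opposite sides of 0 except at one-colour 1.5X.

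Marker sums of several cell types differed between exposures in the two-colour 1X set, under the mouse numbers of the description. Over all probes of that set 32.7% had groups without overlap and 3.15% were called lower. The summed level of the 8 hepatocyte markers was 16.28 to 16.29 in phenobarbital mice, against 16.55 to 16.56 in control mice, and 2 of the 8 were called lower. A sum weighs its brightest members most. The list of 16 secreted hepatocyte proteins, all tested, summed to 17.95 to 18.04 in phenobarbital mice and 17.93 to 17.97 in control mice, with an overlap. It shares Alb, Ttr, Apoa1, Apoc3 and Serpina1c with the hepatocyte markers, so these lists are not independent. The stellate cell and fibroblast markers (4 of 8 tested) summed to 12.13 to 12.31 in phenobarbital mice, against 11.82 to 12.04 in control mice. The endothelial markers (4 of 8 tested) summed to 9.67 to 9.84 in phenobarbital mice and 9.92 to 9.94 in control mice, and the Kupffer cell and macrophage markers (6 of 10 tested) to 10.54 to 10.62 in phenobarbital mice and 10.40 to 10.51 in control mice. None of these 3 lists had a member called. The 1 neutrophil marker of 6 that was tested, over both one-colour inputs, read -3.59 to -1.43 in phenobarbital mice and -5.95 to -4.41 in control mice. No neutrophil marker was well above background on all 12 one-colour arrays, so this 1 entered through 1 exposure group alone. Its gap between the groups is therefore partly set by the filter, and its values are a description, with no test. Over both one-colour inputs the hepatocyte, stellate, endothelial and Kupffer cell sums overlapped between the groups. The part of cell makeup in the Mup differences was not tested, and in bulk tissue fewer hepatocytes and less RNA per hepatocyte cannot be told apart.

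The signals of Mup6 and Mup4 differed far more between sets than between exposures. The Cy3 processed signal of Mup6, as deposited, was 264.6, 155.8 and 155.3 in phenobarbital mice 1 to 3 on the one-colour 1.5X arrays, against 7674.5, 8525.2 and 7730 in the same mice on the 1X arrays. In control mice 1 to 3 it was 188.8, 152.1 and 158.3 at 1.5X, against 8033.3, 5216.8 and 7617.2 at 1X. Every 1.5X array was below every 1X array. On two-colour arrays the order was turned: Mup6 read 3070.6 to 6157 on 8 arrays at 1.5X, median 3351.1, against 91.5 to 234.1 on 6 arrays at 1X, median 197.1.

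Mup4 followed Mup6. Its Cy3 signal was 106.2 to 179.8 on the one-colour 1.5X arrays (median 133.9), against 1714.2 to 3188.7 on the 1X arrays (median 2752.6). On two-colour arrays it was 795.8 to 1665.1 at 1.5X (median 1062.9) and 108 to 243.3 at 1X (median 157). So both probes were bright in the slides of session 1 and dim in those of session 2, whichever input these held.

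**Figure D3:**
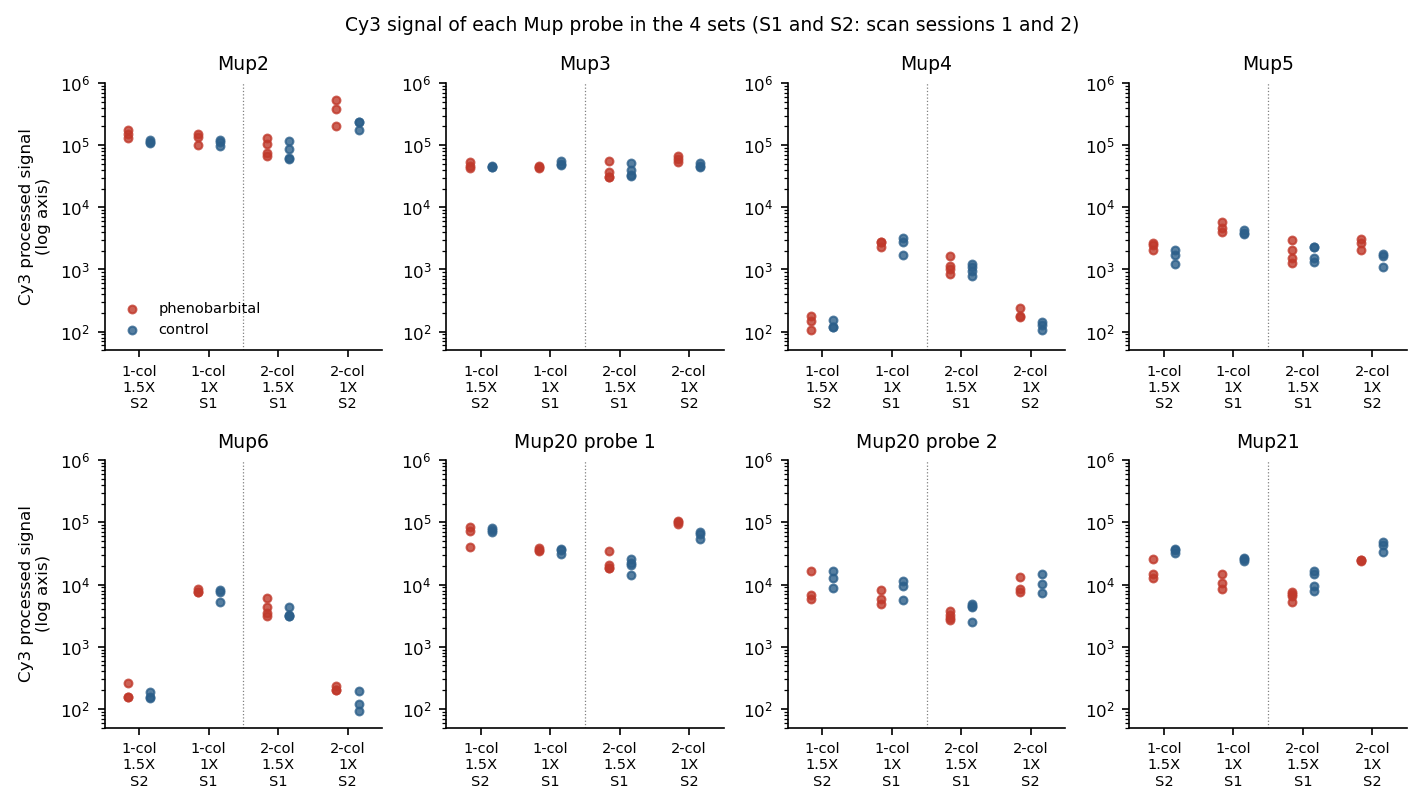
Cy3 processed signal of each Mup probe on a log axis in the 4 sets, as deposited and not scaled between arrays, with 1 point per array, phenobarbital red and control blue. S1 and S2 name the scan session of the slide, and the dotted line separates one-colour from two-colour sets. Mup4 and Mup6 are high in both session 1 sets (medians 2752.6 and 1062.9 for Mup4) and low in both session 2 sets (133.9 and 157).

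For the comparison of inputs the 12 one-colour arrays were scaled together, over probes well above background on all of them. Within mouse, the scaled one-colour level of Mup6 was lower at 1.5X than at 1X in 6 of 6 mice, with log2 differences of -6.22 to -5.76 and a mean of -5.93 ± 0.11 (SE, adjusted p = 4.75e-07, limma on 6 within-mouse differences). That is a level 60.9 times lower. Mup4 was at -4.76 ± 0.11 (adjusted p = 1.31e-06) and Mup5 at -1.66 ± 0.16 (adjusted p = 6.55e-05), each lower in 6 of 6 mice. Mup3 at -0.57 ± 0.11 (adjusted p = 0.0025) and Mup2 at -0.38 ± 0.13 (adjusted p = 0.0332) were also called lower, but without scaling between arrays Mup3 was at -0.04 (adjusted p = 0.83) and Mup2 at 0.15 (adjusted p = 0.376). Mup21 at 0.00 ± 0.10 and Mup20 probe A_55_P2063654 at -0.02 ± 0.11 did not pass, and without scaling they stood at 0.53 and 0.51 (adjusted p = 0.00903 and 0.017). Mup20 probe A_55_P2051486 was at 0.42 ± 0.24 (adjusted p = 0.158), with -0.88 in phenobarbital mouse 1 and 0.39 to 1.00 in the other mice, and without that mouse at 0.68 (adjusted p = 0.005). The median over all probes was -0.17 as scaled and 0.36 without scaling, and 61.6% of the 24933 probes tested were called, so a call alone sets no Mup apart.

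The same within-mouse difference in the Cy3 channel of the two-colour arrays, scaled likewise, was 1.25 ± 0.13 for Mup5 (adjusted p = 6.94e-05) and 0.80 ± 0.11 for Mup3 (adjusted p = 0.000219). As scaled, both were higher at 1.5X in 6 of 6 mice. The medians of their deposited Cy3 signals were lower at 1.5X: 1791.1 against 1922 at 1X for Mup5, and 34629.5 against 52121.5 for Mup3. The direction for Mup5 and Mup3 therefore rests on the scaling between arrays. The scaled difference was 5.81 for Mup6 and 4.05 for Mup4, whose Cy3 spots were well above background on 8 of 8 arrays at 1.5X but on 5 of 6 (Mup6) and 4 of 6 (Mup4) at 1X. These 2 probes entered the fit through the 1.5X arrays, where they were bright, so their values are a description, with no test. Mup20 probe A_55_P2051486 at -0.58 ± 0.11 (adjusted p = 0.00137), Mup21 at -0.58 ± 0.14 (adjusted p = 0.0053) and Mup2 at -0.34 ± 0.14 (adjusted p = 0.0499, 5 of 6 mice) were called lower, and Mup20 probe A_55_P2063654 at -0.18 ± 0.13 did not pass (adjusted p = 0.21). The fit called 82.3% of 20182 probes, with a median of 0.96. The difference between formats, one-colour minus two-colour, was -2.91 ± 0.25 for Mup5 (adjusted p = 1.13e-05) and -1.37 ± 0.19 for Mup3 (adjusted p = 0.000184). With the same limit on their dim two-colour side it was -11.73 for Mup6 and -8.80 for Mup4. Over all 20115 probes the median of this difference between formats was -0.98, and 70.2% were called. Among 20115 probes measured in both formats, 7317 (36.4%) were called lower at 1.5X on one-colour arrays and higher on two-colour arrays.

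**Figure D4:**
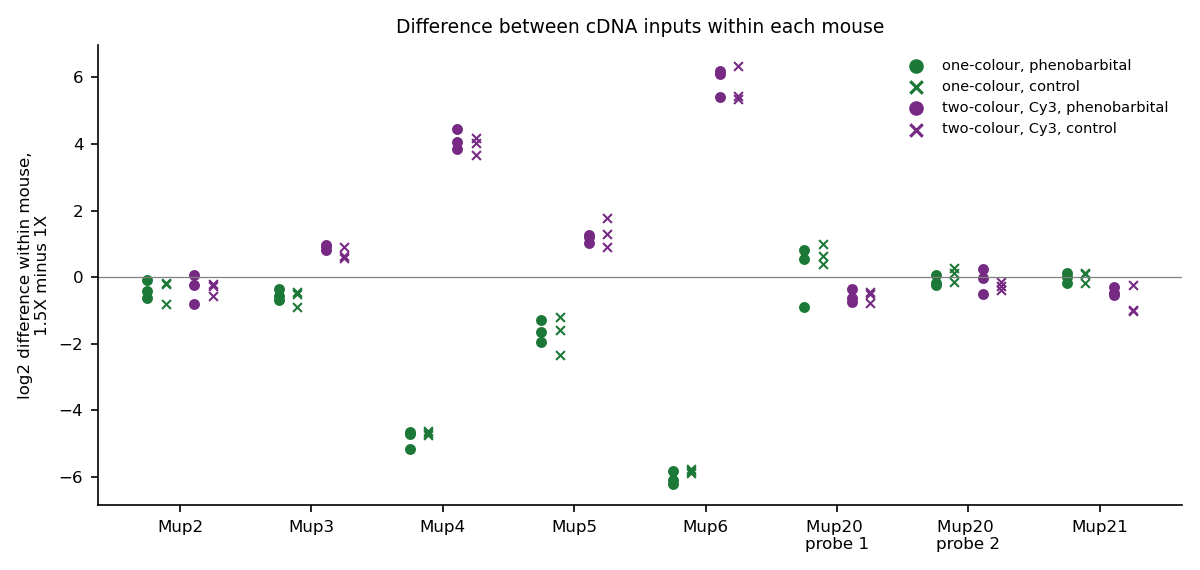
Within-mouse log2 difference, 1.5X minus 1X, of each Mup probe on one-colour arrays (green) and in the Cy3 channel of two-colour arrays (purple), with circles for the 3 phenobarbital mice and crosses for the 3 control mice. Mup6 averages -5.93 on one-colour and 5.81 on two-colour arrays, while Mup21 lies at 0.00 and -0.58.

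Over the 12 one-colour arrays, centred within each input, some Mup probes varied together. These arrays are 6 mice measured at 2 inputs, so the correlations are a description. The profiles were not centred within exposure, so they hold the exposure differences given above. Mup2 went with Mup5 (Pearson r = 0.94) and Mup3 (0.92), and Mup4 with Mup6 (0.89). Mup21 ran against Mup2 (-0.66), Mup5 (-0.71) and Mup6 (-0.70), and the 2 Mup20 probes correlated at -0.29. The probes outside the family most like the mean standardized Mup profile of 8 probes were those of Tacr2 (0.93), Washc3 (0.90), Eif2b3 (0.89), Zdhhc6 (0.89) and Rnu2-10 (0.87), among 8811 candidates of which 0.567% exceeded 0.8. Mup21 (-0.37) and Mup20 probe A_55_P2063654 (-0.04) did not follow that mean profile themselves. The 3 probes of other Mup genes, Mup17, Mup18 and Mup19, had exposure differences of 0.50, 0.37 and 0.21 at one-colour 1X and 0.50, 0.62 and 0.59 at two-colour 1X.

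Genes related to Mup expression were read from lists by function, with 1 probe per gene. The two-colour 1X calls below rest on the mouse numbers of the description, as for the Mups. Over all probes 3.29% were called higher and 3.15% lower in that set, and 0.626% and 0.104% over both one-colour inputs. Under the mouse numbers of the source names 122 of 10043 probes were called in the two-colour 1X set, and the lists were not read under those numbers. Of 12 tested genes of the growth hormone and STAT5 pathway, 0 passed over both one-colour inputs (median -0.43, against -0.03 over all probes). The furthest were the feedback genes Cish (-1.98 ± 0.66) and Socs2 (-1.55 ± 0.41), then Igfbp1 (-1.25 ± 0.48) and Igfals (-0.74 ± 0.21). In the two-colour 1X set 2 of 9 fell, Socs2 (-1.005 ± 0.10) and Stat5b (-0.32 ± 0.08), the transducer itself, and 0 rose. Of 13 transcription factors reported to act on Mup genes, 11 were tested, and 0 passed in one colour. The furthest there were Onecut1 (-1.43 ± 0.45), Cebpb (0.43 ± 0.19), Foxa2 (-0.32 ± 0.34) and Nfib (-0.29 ± 0.14), and Cebpb rose in the two-colour 1X set (0.47 ± 0.09).

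Of 17 tested male-biased liver genes other than Mups, 0 passed in one colour, with a median of -0.13. The furthest were Cyp2u1 (-1.01 ± 0.23), Hsd3b5 (-0.88 ± 0.24), Nudt7 (-0.72 ± 0.15) and Susd4 (-0.58 ± 0.17). In the two-colour 1X set 4 of 14 fell (Elovl3, Nudt7, Cyp2u1 and Hsd3b5, by 0.44 to 0.71) and 0 rose. Of 9 tested female-biased genes, 3 rose in one colour, all P450 genes whose close relatives may add to the signal: Cyp3a44 (3.86 ± 0.25), Cyp2a4 (1.84 ± 0.21) and Cyp3a16 (1.26 ± 0.18). Of these 9 genes, 5 were well above background on all one-colour arrays, so the others entered through 1 exposure group alone. The differences of such genes are partly set by the filter. Whether the 3 genes that rose are among them was not tested, so their rise is a description. In the two-colour 1X set 1 of 3 rose, Cyp2a4 (1.56 ± 0.09), and 1 fell, Acot3 (-0.72 ± 0.18). Among other lipocalins, the acute-phase protein gene Orm3 rose (3.93 ± 0.56), 1 of 10 in one colour, where Lcn2 stood at 3.44 ± 0.58, Orm2 at 2.22 ± 0.47 and Orm1 at 0.92 ± 0.20 without passing, and Lcn2 (2.69 ± 0.14), Orm3 (1.76 ± 0.12), Orm2 and Orm1 rose in the two-colour 1X set, 4 of 9. Of 16 other secreted hepatocyte proteins 0 passed in one colour, and in the two-colour 1X set hemopexin (Hpx, 0.99 ± 0.09) rose and Alb (-0.39 ± 0.07) and Ttr (-0.62 ± 0.09) fell. Alb and Ttr are also on the list of hepatocyte markers above. In the list of phenobarbital-induced genes, 7 of 10 rose in one colour, with Cyp2b10 at 6.21 ± 0.23, and 10 of 10 rose in the two-colour 1X set. The list was chosen with earlier results of these data known, so this rise is a description and no independent check. In the lipocalin list and in this list, 9 of 10 genes were well above background on all one-colour arrays. The limit given for the female-biased genes therefore holds for the remaining gene of each list.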

How the data were processed

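The members and gene lists were chosen with earlier results of these data known. Per the file headers, arrays were read with version 11.0.1.1 of Agilent's Feature Extraction. The authors' deposited scanner tables hold spot intensities: median signals, background medians, and a background-subtracted processed signal with no scaling between arrays. For two-colour arrays a deposited log10 ratio per spot (red over green) is given too, and deposited 0 or 1 spot flags (other) mark saturation and signal well above background. The series matrix repeats the processed signals and log10 ratios. RefSeq accessions were matched to a GRCm38.p6 table for names only (27235 probes named). Array signals have no count depth, and the number of mice limits the precision.

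On one-colour arrays the processed signal was log2-transformed and the 75th percentile of its array, taken over probes detected well above background throughout the set, was subtracted. Two-colour values come from median signals with normexp (offset 50), loess (span 0.3) and Aquantile, averaged over both dyes of a mouse. Two-colour 1X arrays 4 and 8 were left out because their labels give opposite dyes, and on arrays 3, 5, 6 and 7 the mouse numbers of the description were used. A probe entered a fit when every array of 1 exposure group flagged it well above background. Fits were made with limma 3.58.1 (lmFit and eBayes, R 4.3.3), with p-values Benjamini-Hochberg adjusted over all probes tested, at 0.05. Input differences were tested within mouse. Alternatives were other normalizations, filters, scalings, labels and left-out mice. Named probes were, per gene, the brightest on one-colour arrays and any probe that passed a test or differed in sign, and up to 4 genes per list with the largest one-colour difference. Promoters were aligned with Biopython 1.88. Nothing says that same-numbered mice share a litter or day, so the numbers were not used to pair mice. Deviations from the group mean correlated at 0.04, -0.09 and 0.23 for numbers 1, 2 and 3 at one-colour 1X. At two-colour 1X the correlations were 0.29, -0.04 and 0.38. Numbers 1 and 3 were positive in every set, and number 2 lay between -0.29 and 0.02.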

Additional observations from a re-analysis of the deposited data

Results flagged for a closer look

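The difference between inputs differed between the one-colour and two-colour formats for Mup5, Mup3, Mup21 and Mup20 probe A_55_P2051486. This was a test of that difference itself (limma, adjusted p under 0.05). Mup6 and Mup4 have no test here, since they entered the two-colour fit through the 1.5X arrays, where they were bright. The values, one-colour minus two-colour Cy3, were -11.73 for Mup6, -8.80 for Mup4 (both well above background on only 5 and 4 of 6 two-colour 1X Cy3 spots, so a description), -2.91 for Mup5, -1.37 for Mup3, 1.00 for Mup20 probe A_55_P2051486 and 0.58 for Mup21, on the log2 scale. The same test called 70.2% of all 20115 probes, whose median was -0.98, so a call alone sets no Mup apart. Input, slide and scan session cannot be told apart within a format.

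Among the 6 within-mouse input differences of a probe, 1 mouse stood far from the others in 2 cases. Mup20 probe A_55_P2051486 was at -0.88 in phenobarbital mouse 1 on one-colour arrays, a gap of 0.68 of the whole range. Mup4 probe A_55_P2010093 was at -5.16 in phenobarbital mouse 2, a gap of 0.73 of the range. Chance gives such a gap in about 1 of 20 groups of this size.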

How the results depend on the processing

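Mup21 kept a negative exposure difference and Mup4, Mup5 and Mup6 their lower one-colour signal at 1.5X under every alternative run. Since the family was selected partly on a lower Mup21 signal in these arrays, the Mup21 sign is a description. In the two-colour 1X set 2 Mup probes passed, in place of 4, with processed signals, quantile normalization and no loess, and with Cy3 alone, and 0 with Cy5 alone, with the mice of the source names and with all 8 arrays by the channel labels (122 of 10043 and 124 of 8855 probes called in the last 2, against 646). Leaving out 1 mouse left 1 to 4 calls there and moved the median Mup difference between 0.34 and 0.54. With normexp and quantile normalization 1 Mup probe, Mup21, passed at one-colour 1.5X and over both inputs (187 and 221 probes called). Without scaling between arrays the median Mup difference at one-colour 1X was 0.0842, where that of all probes was -0.29 (0.0083 as scaled). For the inputs, the median Mup difference was -0.48 as scaled, -0.0431 with normexp and quantile, -0.15 with the percentile over all probes and 0.0574 unscaled. Under the percentile over all probes Mup20 probe A_55_P2063654 was at 0.30 and Mup21 at 0.33, and unscaled Mup2 was at 0.15, the same Mup20 probe at 0.51 and Mup21 at 0.53. Within the 3 phenobarbital mice 3 Mup probes passed, where 5 did over all 6 mice, as 41.7% of all probes passed within phenobarbital mice, 47.2% within control mice and 61.6% over all 6. The cause of these changes was not tested. Leaving out a mouse gave median Mup differences of 0.26 to 0.49 at one-colour 1X, 0.02 to 0.35 at 1.5X, 0.08 to 0.44 over both, 0.13 to 0.33 at two-colour 1.5X and -0.53 to -0.40 between inputs, with 0 exposure calls outside the two-colour 1X set and 4 to 5 input calls. With the mouse number as a replicate block 4 Mup probes passed at two-colour 1X and 0 in the other exposure sets, and the probes called numbered 3, 3, 57 and 975 (one-colour 1X, 1.5X, both, two-colour 1X), in place of 34, 44, 119 and 646. With no replicate block for mouse, 4 Mup probes passed between inputs (Mup2 did not, adjusted p = 0.235). Signal over background limits Mup4 and Mup6, dim in session 2.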

Other observations

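The 2 arrays left out of the two-colour 1X set had Mup values that differed in sign between their labels. On array 4 the log2 ratio of phenobarbital over control, from the deposited log10 ratios, was -0.73 for Mup2 and 0.92 for Mup21 by the description, and 0.73 and -0.92 by the channel labels. On array 8 it was -0.34 for Mup2 and 0.36 for Mup21 by the description, and 0.34 and -0.36 by the channel labels. On the other 6 arrays Mup2 lay between 0.36 and 1.33 and Mup21 between -0.95 and -0.46.

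On those 6 arrays the Cy3 and Cy5 values of a mouse lay apart by different amounts under the 2 sets of mouse numbers. For Mup20 probe A_55_P2063654 the median gap was 0.08 by the source names and 0.54 by the description. For Mup21 it was 0.13 by the source names and 0.21 by the description, and for Mup2 0.48 by the source names and 0.44 by the description. Which numbers are right was not tested.

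The probes most like Mup21 alone over the 12 one-colour arrays, a question added after the values were seen, were those of Bhmt (Pearson r = 0.98), Nudt7 (0.98), Slc17a3 (0.98 and 0.97) and Aqp8 (0.97), as a description. The profiles were centred within input and not within exposure, so a probe that shares the exposure difference of Mup21 ranks high.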
